A study of Penicillium oxalicum with 9 samples.

Results

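Messenger RNA levels of 4 short stretches of consecutive locus numbers were examined in the filamentous fungus Penicillium oxalicum. The stretches were PDE_00007 to PDE_00011, PDE_01429 to PDE_01433, PDE_02138 to PDE_02142 and PDE_03620 to PDE_03625, which hold 5, 5, 5 and 6 genes. They are called the PDE_00007, PDE_01429, PDE_02138 and PDE_03620 stretches after their first gene. They had been picked because their levels were lower in the strain without crzA than in the wild type, so that fall is a description here and supports nothing. Each stretch was taken with the 5 locus numbers on either side, 61 numbers in all. The table held 60 of them among its 9860 genes, 21 inside the stretches and 39 in the flanks, with no row for PDE_02147. Locus numbers were taken as neighbours by their numbering alone, since no genome of this strain was used.

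Each of 3 strains was represented by 3 libraries. The strains were a crzA deletion strain, a strain labelled as CrzA recover, in which crzA had been put back and which is called the recovery strain here, and the wild type, strain 114-2. Mycelium of all 3 strains grew for 24 h at 30 °C in a pre-culture and was collected 18 h after being moved to fresh medium. The medium label gives 2% starch as its carbon source, whereas the source label of every sample names glucose. The labels do not say how the strains were built, whether each is 1 clone, or whether replicates were separate cultures, so p-values here rest on a spread between libraries that may be technical only.

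CrzA is a zinc finger transcription factor that fungi use to turn a rise in cytosolic calcium into a change in transcription. Calcineurin, a phosphatase switched on by calcium and calmodulin, removes phosphates from CrzA, which then enters the nucleus, and in moulds this pathway is known for ion tolerance, cell wall upkeep and conidiation. Genes of filamentous fungi that serve 1 metabolic route, such as the making of a secondary metabolite or the use of a nutrient, often lie side by side and are transcribed together. The deposited table lists locus numbers without names, and none of the 60 was found in the reference annotation, which is that of strain HP7-1, so no role is given to any gene below.

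Levels are in FPKM, the number of sequenced fragments per kilobase of a gene, scaled to the size of the library. Summed FPKM lay between 973798 and 1063500 in the 9 libraries. Replicate 2 stood apart from its group in the deletion strain and in the wild type. Over the 9099 genes that reached 1 FPKM in 3 or more libraries, which are not independent replicates, log2 levels of deletion replicate 2 correlated at r = 0.937 and 0.944 with deletion replicates 1 and 3, against 0.987 between these, and those of wild-type replicate 2 at 0.943 and 0.949 with wild-type replicates 1 and 3, against 0.993. In the recovery strain the values were 0.989 to 0.995. The level of crzA itself was not analysed here, so the labels were not checked by it. In RNA from whole mycelium, fewer cells that transcribe a gene and less RNA per cell cannot be told apart.

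In all 4 stretches every gene stood lower in all 3 deletion libraries than in any recovery or wild-type library. Of all genes tested, 14.5% lay below the wild type in this way and 25.0% below the recovery strain. In the deletion strain 3 of the stretches kept under 5% of their summed wild-type level and the PDE_00007 stretch kept more. Summed over its 5 genes, the PDE_01429 stretch held 2.37 ± 0.945 FPKM in the deletion strain, 135 ± 17.5 in the recovery strain and 129 ± 13.5 in wild-type libraries (SD over 3 libraries each). The PDE_02138 stretch held 13.2 ± 1.74 FPKM in the deletion strain, 532 ± 64.5 in the recovery strain and 429 ± 39.6 in wild-type libraries. For the PDE_03620 stretch the sum was 12.5 ± 1.53 FPKM in the deletion strain, 226 ± 2.04 in the recovery strain and 309 ± 119 in wild-type libraries. The PDE_01429, PDE_02138 and PDE_03620 stretches kept 1.84%, 3.09% and 4.04% of their wild-type sum in the deletion strain. The PDE_00007 stretch kept 8.05%, at 53.4 ± 27.0 FPKM in the deletion strain, 290 ± 46.2 in the recovery strain and 663 ± 402 in wild-type libraries. Its large spread in the deletion and wild-type strains came with replicate 2 of each, at 22.7 FPKM in deletion replicate 2, against 73.4 and 64.0 in deletion replicates 1 and 3, and at 202 FPKM in wild-type replicate 2, against 939 and 848 in wild-type replicates 1 and 3.

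Changes were taken on the log2(FPKM + 1) scale, where those of low genes come out too small. The median change in deletion against wild type was -2.89 over the genes of the PDE_00007 stretch, -4.39 in the PDE_01429 stretch, -4.56 in the PDE_02138 stretch and -4.30 in the PDE_03620 stretch, beside 0.06 over all 9099 genes. The order of the last 3 depended on the pseudocount: with 0.1 in place of 1 they were -5.57, -5.40 and -5.09, and with 5 they were -2.70, -3.67 and -2.85. The PDE_00007 stretch had the shallowest median with all 3 pseudocounts, at -2.999 with 0.1 and -2.40 with 5. The limma test across the whole table called all 21 genes lower (Benjamini-Hochberg adjusted p under 0.05). Beside the 3 flanking genes also called lower, that was 24 of the 54 members that passed the filter, where 11.1% of all genes tested were called lower. Because the stretches were chosen on this comparison, nothing is read from these counts.

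**Figure D1:**
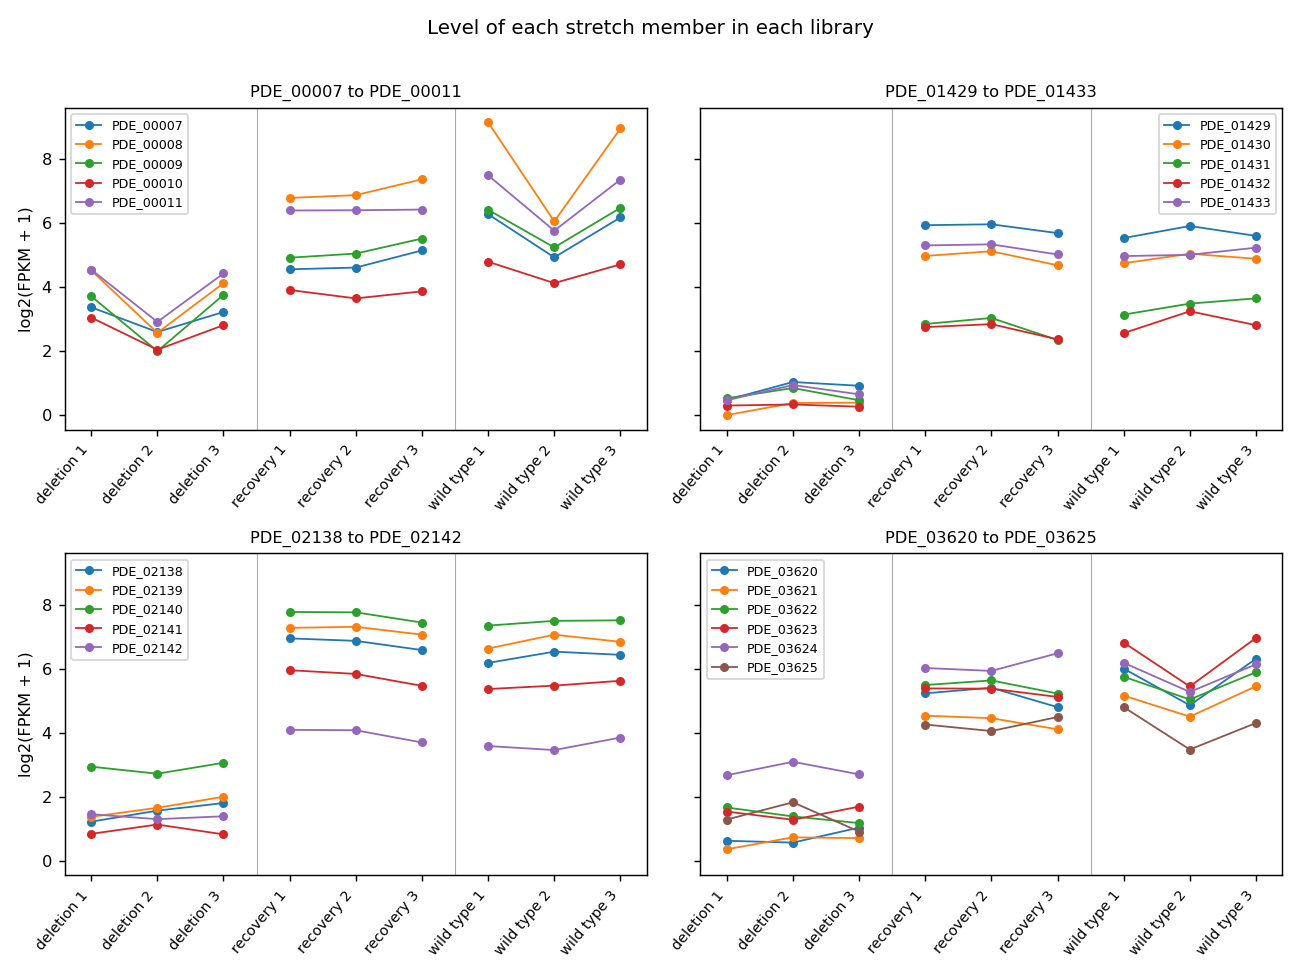
Level of each of the 21 stretch genes as log2(FPKM + 1) in the 3 deletion, 3 recovery and 3 wild-type libraries, 1 panel per stretch and 1 colour per gene; lines join libraries of 1 strain. Deletion libraries lie lowest in every panel, and the lines dip at replicate 2 of the deletion and wild-type strains in the PDE_00007 stretch and at wild-type replicate 2 in the PDE_03620 stretch.

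PDE_00008 had the highest wild-type level of the 21 genes and carried most of the sum of its stretch in wild-type replicates 1 and 3. It stood at 22.1, 4.95 and 16.5 FPKM in deletion replicates 1, 2 and 3, at 109.96, 117 and 165 FPKM in recovery replicates, and at 571, 65.8 and 499 FPKM in wild-type replicates. The mean in the deletion strain was 3.83% of the wild-type mean, the deepest fall of this stretch (log2 change -4.32 ± 0.80, SE). Its neighbour PDE_00007 was at 9.37, 5.06 and 8.36 FPKM in the deletion strain, 22.6, 23.5 and 34.55 in the recovery strain and 77.1, 29.6 and 71.65 in the wild type. PDE_00009 was at 12.2, 3.0 and 12.55 FPKM in the deletion, 29.35, 32.2 and 44.95 in the recovery and 84.7, 36.9 and 88.5 in the wild-type libraries. Both kept about the same share of the wild-type mean, 12.8% and 13.2%. PDE_00010 was the least abundant gene of the stretch and fell least of all 21 genes, to 24.0% of the wild type, with 7.30, 3.13 and 6.03 FPKM in the deletion strain, 14.1, 11.6 and 13.6 in the recovery strain and 26.8, 16.5 and 25.3 in the wild type. PDE_00011, at the far end, had 22.5, 6.55 and 20.6 FPKM in the deletion strain, 83.5, 83.9 and 85.2 in the recovery strain and 180.11, 53.5 and 164 in the wild type, so the deletion strain kept 12.5%. Deletion replicate 2 was the lowest deletion library and wild-type replicate 2 the lowest wild-type library for each of the 5 genes, as they were for 44.2% and 45.8% of all genes tested.

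The PDE_01429 stretch was made of genes of moderate to low level in the wild type and came nearest to 0 in the deletion strain, where no value of its 5 genes exceeded 1.05 FPKM. PDE_01429 was at 0.39, 1.05 and 0.89 FPKM in the deletion strain, 60.4, 61.6 and 50.8 in the recovery strain and 45.5, 59.4 and 47.7 in the wild type. PDE_01430 was listed at 0 in deletion replicate 1 and at 0.30 and 0.31 FPKM in deletion replicates 2 and 3, against 30.5, 33.9 and 24.8 in the recovery strain and 25.9, 32.1 and 28.7 in the wild type. Its deletion mean was 0.704% of the wild-type mean, the smallest share among the 21 genes. PDE_01433 showed the same order, with 0.38, 0.92 and 0.57 FPKM in the deletion strain, 38.6, 39.6 and 31.6 in the recovery strain and 30.4, 31.3 and 36.7 in the wild type. The 2 genes between them stood lower than these in every recovery and wild-type library. PDE_01431 was at 0.44, 0.80 and 0.38 FPKM in the deletion strain, 6.21, 7.22 and 4.10 in the recovery strain and 7.84, 10.2 and 11.6 in the wild type, and PDE_01432 at 0.23, 0.26 and 0.20 FPKM in the deletion strain, 5.74, 6.19 and 4.17 in the recovery strain and 4.92, 8.5 and 6.03 in the wild type. They kept 5.47% and 3.55% of the wild-type mean. Their log2 changes of -2.82 and -2.58 were smaller than the -4.88 to -4.39 of the other genes of the stretch, and with wild-type means of 9.88 and 6.48 FPKM they were the least abundant of the 21 genes, on which the pseudocount weighs most.

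In the PDE_02138 stretch the deletion libraries lay far below all others for every gene. PDE_02138 was at 1.33, 1.96 and 2.49 FPKM in the deletion strain, 123, 116.5 and 95.2 in the recovery strain and 71.85, 92.0 and 85.8 in the wild type. PDE_02139 had the largest log2 change of the 21 genes with a pseudocount of 1, -5.17 ± 0.18 (SE), though with 0.1 it had -5.65, against -6.83 for PDE_01430 and -6.11 for PDE_03620. It was at 1.59, 2.15 and 3.0 FPKM in the deletion strain, 155, 158 and 133 in the recovery strain and 98.4, 133 and 114 in the wild type. PDE_02140 was the most abundant gene here, at 6.68, 5.59 and 7.36 FPKM in the deletion strain, 219, 217 and 174 in the recovery strain and 163, 180.3 and 182 in the wild type. The deletion strain thus kept 2.32%, 1.95% and 3.74% of the wild-type mean of these genes. PDE_02141 had 2.08% left, at 0.79, 1.19 and 0.77 FPKM in the deletion strain, 61.2, 56.4 and 43.3 in the recovery strain and 40.4, 43.5 and 48.4 in the wild type. The last gene differed: PDE_02142 kept 14.0%, with 1.74, 1.46 and 1.62 FPKM in the deletion strain, 16.1, 15.9 and 11.98 in the recovery strain and 11.01, 10.01 and 13.4 in the wild type. With its wild-type mean of 11.5 FPKM it was also the least abundant gene of the stretch, and its log2 change was -2.25 ± 0.18.

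In the PDE_03620 stretch the first 4 genes fell further than the last 2. PDE_03620 was at 0.54, 0.48 and 1.05 FPKM in the deletion strain, 36.7, 41.5 and 26.9 in the recovery strain and 63.4, 28.1 and 78.7 in the wild type. PDE_03621 was at 0.28, 0.66 and 0.63 FPKM in the deletion strain, 22.2, 21.0 and 16.3 in the recovery strain and 34.9, 21.7 and 42.9 in the wild type. These genes kept 1.22% and 1.58% of the wild-type mean. PDE_03622 kept 3.51%, at 2.17, 1.61 and 1.26 FPKM in the deletion strain, 44.1, 48.8 and 36.5 in the recovery strain and 53.0, 32.0 and 58.6 in the wild type. PDE_03623, the most abundant of the stretch in the wild type, kept 1.99%, at 1.90, 1.43 and 2.23 FPKM in the deletion strain, 40.9, 40.7 and 33.85 in the recovery strain and 112, 42.7 and 124 in the wild type. The fall was shallower at the end of the stretch. PDE_03624 kept 10.3%, with 5.38, 7.54 and 5.5 FPKM in the deletion strain, 64.2, 60.2 and 88.8 in the recovery strain and 72.1, 37.8 and 69.7 in the wild type, and PDE_03625 kept 8.72%, with 1.44, 2.55 and 0.88 FPKM in the deletion strain, 18.2, 15.6 and 21.5 in the recovery strain and 26.9, 10.1 and 18.8 in the wild type. PDE_03624 had the second highest wild-type mean of the stretch, 59.9 FPKM, and PDE_03625 the lowest, 18.6 FPKM. Whether the depth of the fall went with the level was not tested. Wild-type replicate 2 was the lowest wild-type library for all 6 genes.

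Setting the recovery strain against the wild type addressed whether the levels returned once crzA was put back. The recovery libraries did not enter the choice of the stretches, but the wild-type libraries did. Measured as a share of the wild-type mean in FPKM, the recovery strain reached a median of 50.7% over the genes of the PDE_00007 stretch (34.5% to 63.5%), 103% in the PDE_01429 stretch (59.2% to 113%), 128% in the PDE_02138 stretch (116% to 134%) and 76.0% in the PDE_03620 stretch (41.3% to 119%). With all wild-type libraries in the mean, the PDE_00007 stretch thus stood lowest relative to the wild type and the PDE_02138 stretch highest. Their median log2 changes in recovery against wild type were -0.88, 0.03, 0.32 and -0.35 in the same order of stretches, beside 0.09 over all genes tested. As a share of the fall regained on the log2 scale, the medians were 69.4%, 101%, 107% and 92.9%.

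None of these differences passed the test for any of the 21 stretch genes (limma, Benjamini-Hochberg adjusted p of 0.186 to 0.955), and 6 of the 21 had an unadjusted p under 0.05. With wild-type replicate 2 left out, 5 of the 21 were called, all lower, where 435 of 9083 genes tested were called lower and 248 higher. With all libraries 1.57% of all genes tested were called in this comparison, 143 of 9099, and 1293 had an unadjusted p under 0.05. The intervals were wide, so equality with the wild type is not shown. For PDE_00008 the log2 change of -1.04 had a 95% confidence interval in limma of -2.84 to 0.76, and for PDE_00011 the change of -0.47 had one of -1.64 to 0.71. In the PDE_01429 and PDE_02138 stretches the intervals were narrower, such as -0.38 to 0.45 for PDE_01430 and -0.12 to 0.53 for PDE_02140. Not all of them held 0: that of PDE_01431 was -1.21 to -0.16 and that of PDE_02138 0.007 to 0.83. The intervals of PDE_00007, PDE_00010, PDE_03621 and PDE_03623 also lay wholly below 0. These intervals are not adjusted for the number of genes. By overlap of the libraries, the recovery strain was below all wild-type libraries in 3 genes, PDE_00010, PDE_01431 and PDE_03623, where 8.17% of all genes tested showed that order. It was above all of them in 2 genes, PDE_02138 and PDE_02139, where 21.9% of all genes tested showed that order.

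**Figure D2:**
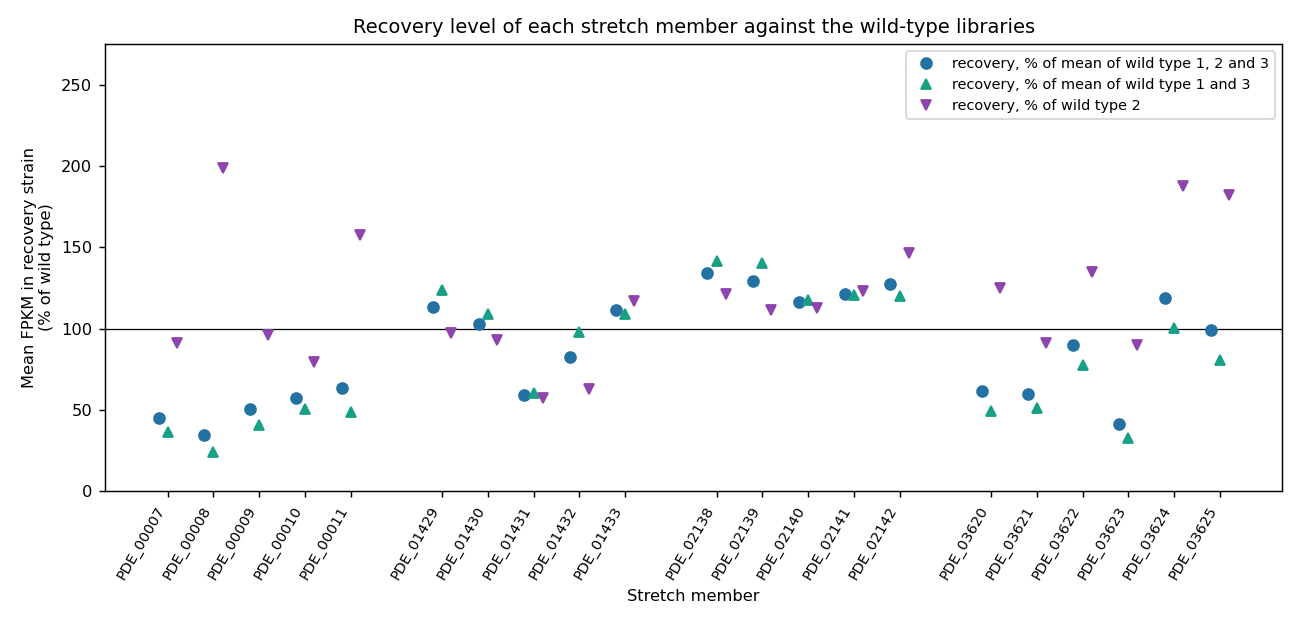
Mean FPKM of each of the 21 stretch genes in the recovery strain as a percentage of the mean of all 3 wild-type libraries (circles), of wild-type replicates 1 and 3 (upward triangles) and of wild-type replicate 2 alone (downward triangles); the line marks 100%. The 3 symbols lie close together for PDE_02138 to PDE_02142, between 112% and 146%, and far apart for PDE_00008, between 24.4% and 199%.

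How far the PDE_00007 and PDE_03620 stretches returned depended on which wild-type library the recovery strain was set against. Against wild-type replicates 1 and 3, the recovery strain reached a median of 41.0% in the PDE_00007 stretch and 64.1% in the PDE_03620 stretch. Against wild-type replicate 2 it reached 96.1% and 130%. In the PDE_01429 stretch the medians were 109% against wild-type replicates 1 and 3 and 92.7% against wild-type replicate 2, and in the PDE_02138 stretch both were 121%. The choice of library therefore moved the first pair of stretches by 2-fold or more and the second pair little. The order changed too: against wild-type replicate 2 alone the PDE_01429 stretch stood lowest and the PDE_03620 stretch highest.

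Without wild-type replicate 2, the recovery strain was called lower than the wild type in 5 stretch genes. In the PDE_00007 stretch these were PDE_00007 (log2 change -1.46, limma adjusted p = 0.0147) and PDE_00008 (-2.05, limma adjusted p = 0.0486). In the PDE_03620 stretch they were PDE_03620 (-1.01, limma adjusted p = 0.0373), PDE_03621 (-0.94, limma adjusted p = 0.0298) and PDE_03623 (-1.60, limma adjusted p = 0.00114). No gene of the PDE_01429 or PDE_02138 stretch was called in that fit, which called 435 of 9083 genes tested lower and 248 higher. With deletion replicate 2 left out as well, which enters through the shared spread, all 5 genes of the PDE_00007 stretch were called lower, with limma adjusted p from 7.68e-05 to 0.00100, together with the same 3 genes of the PDE_03620 stretch. The fit without both replicates called 1126 of 9025 genes tested lower and 1418 higher, so its added calls were not particular to these stretches. PDE_03622, PDE_03624 and PDE_03625 were not called in either fit, at log2 changes of -0.37, -0.02 and -0.29 without wild-type replicate 2. With all libraries PDE_03624 and PDE_03625 stood at 0.28 ± 0.27 and 0.07 ± 0.35 (SE).

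In the PDE_00007 stretch replicate 2 of the deletion strain and of the wild type lay below replicates 1 and 3 for every gene. In the PDE_03620 stretch this held for the wild type only. On the log2(FPKM + 1) scale, the difference of wild-type replicate 2 from the mean of wild-type replicates 1 and 3 had a median of -1.30 in the PDE_00007 stretch, -0.98 in the PDE_03620 stretch, 0.23 in the PDE_01429 stretch and 0.07 in the PDE_02138 stretch. It was at least 2-fold lower in 4 of 5 genes of the PDE_00007 stretch and in 3 of 6 of the PDE_03620 stretch, in 0 of the 10 genes of the other pair, and in 7.42% of all genes tested. The difference of deletion replicate 2 from the mean of deletion replicates 1 and 3 had a median of -1.58 in the PDE_00007 stretch. It was at least 2-fold lower in 3 of 5 genes there, where 6.46% of all genes tested were so. In the other 3 stretches deletion replicate 2 differed from deletion replicates 1 and 3 by a median of 0.34, -0.03 and 0.08. What set these libraries apart was not tested.

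**Figure D3:**
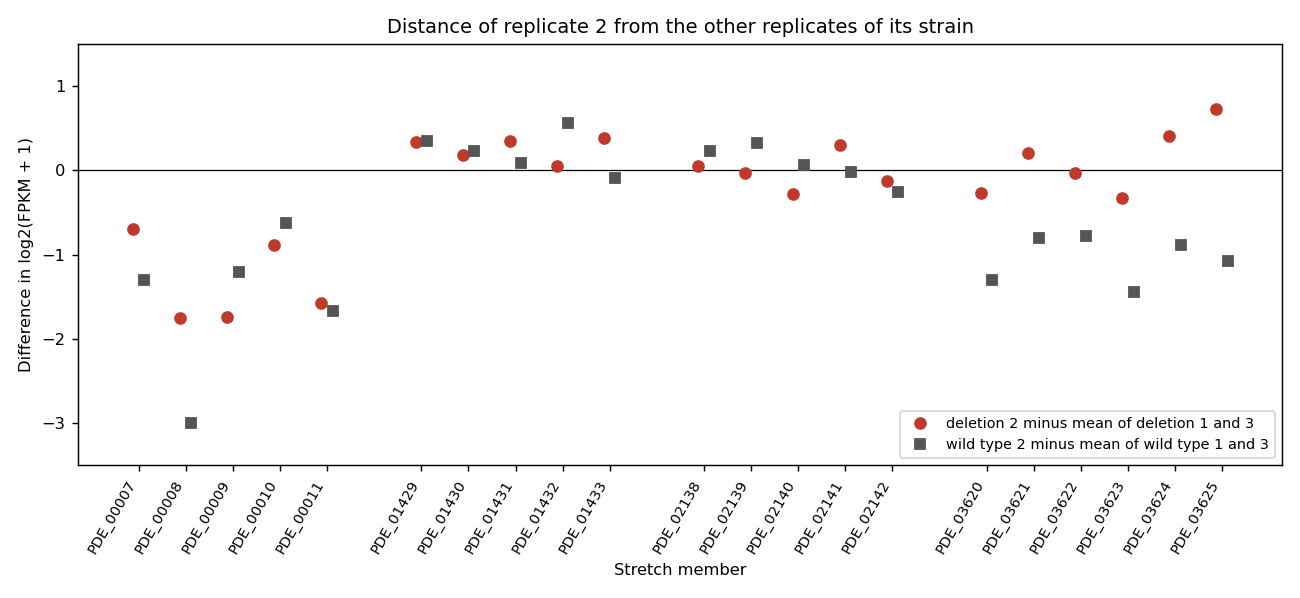
Difference in log2(FPKM + 1) between replicate 2 and the mean of replicates 1 and 3, within the deletion strain (circles) and within the wild type (squares), for each of the 21 stretch genes. Both symbols lie below 0 for all 5 genes of the PDE_00007 stretch, only the wild-type symbols do so for all 6 genes of the PDE_03620 stretch, and the other symbols lie between -0.33 and 0.73.

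The deletion strain was also set against the recovery strain. The deletion libraries are the same as in the comparison with the wild type, so the values are given side by side only. The median log2 change in deletion against recovery was -2.01 in the PDE_00007 stretch, -4.54 in the PDE_01429 stretch, -4.83 in the PDE_02138 stretch and -3.78 in the PDE_03620 stretch, beside -0.02 over all genes. Set beside the -2.89, -4.39, -4.56 and -4.30 against the wild type, the fall was smaller against the recovery strain in the first and last stretch and slightly larger in the other pair. All 21 genes were called lower (limma adjusted p under 0.05), within 26 of 54 members, where 16.1% of all genes tested were called lower. Another 10 members, all in the flanks, were called higher, where 15.4% of all genes tested were. That count was 6 without deletion replicate 1, deletion replicate 3 or recovery replicate 3. Without recovery replicate 3, the adjusted p in limma was 0.0515 for PDE_00008 and 0.0587 for PDE_00009. Without deletion replicate 2, the median of the PDE_00007 stretch was -1.48.

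At the borders the values just inside and just outside a stretch were set side by side. The first gene of the PDE_01429 stretch had a log2 change in deletion against wild type of -4.88 and the number before it, PDE_01428, one of 1.51, and the last gene had -4.39 and the next number, PDE_01434, -0.16. At the PDE_03620 stretch the change was -4.99 in the first gene and 0.02 in PDE_03619 before it, and -2.85 in the last gene and -0.44 in PDE_03626 after it. At the PDE_02138 stretch it was -4.86 in the first gene and 0.03 in PDE_02137, and -2.25 in the last gene and 0.00 in PDE_02143. At the PDE_00007 stretch it was -2.73 in the first gene and 0.14 in PDE_00006, and -2.91 in the last gene and 0.96 in PDE_00012. No flank gene next to a stretch was called lower in the deletion strain than in the wild type, but PDE_03626 was called lower than in the recovery strain (log2 change -0.59 ± 0.19, SE, limma adjusted p = 0.0435). The call of PDE_03626 failed in 7 of the 9 fits that left out 1 library. The step from the edge gene to its neighbour ran from 2.25 to 6.39 on the log2 scale over the 8 borders. PDE_01428 and PDE_02143 averaged 0.33 and 0.0867 FPKM in the wild type, too low for a fall to show there, so these steps locate no border. Over the other 6 borders the step ran from 2.41 to 5.01. Of these it was smallest beside PDE_03625, the shallow end described above. In recovery against wild type the steps at these 6 borders ran from -0.20 to 0.96.

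**Figure D4:**
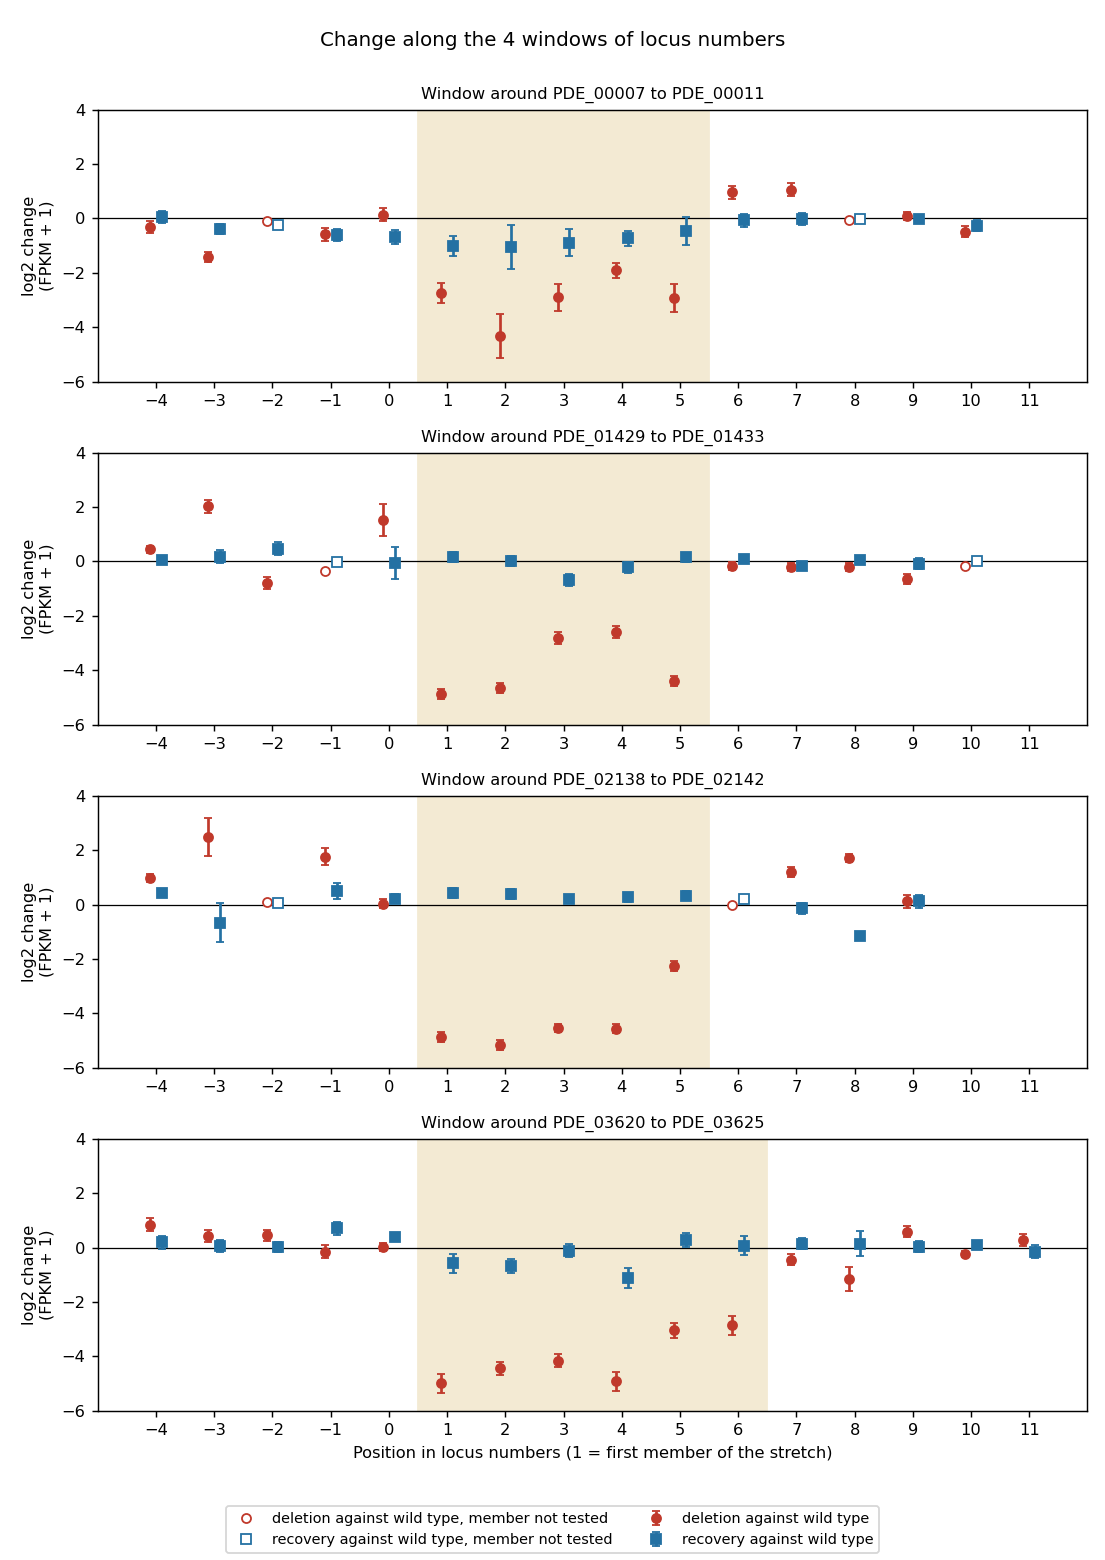
Log2 change on the FPKM + 1 scale in deletion against wild type (circles) and in recovery against wild type (squares) along the locus numbers of the 4 windows; the shaded part is the stretch, bars are SE of limma, and open symbols are genes under the filter, shown without error. The circles drop within the shaded part and return to between -1.41 and 2.48 outside it, while the squares stay between -1.16 and 0.71 throughout.

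Several genes next to these borders lay at low levels. PDE_01428 was at 1.17, 10.7 and 1.06 FPKM in the deletion strain, 0.20, 0.53 and 0.13 in the recovery strain and 0.59, 0.33 and 0.07 in the wild type, so that deletion replicate 2 alone stood far above the rest, and the difference was not called. PDE_02143 was at 0 or took the values 0.13 and 0.26 FPKM in every library, which are whole multiples of 0.13. PDE_02137 stayed between 1.45 and 2.24 FPKM in all 9 libraries. Others stood higher in the wild type. PDE_03619 was at 9.55, 10.7 and 9.15 FPKM in the deletion strain, 13.5, 11.3 and 13.7 in the recovery strain and 8.71, 10.55 and 9.67 in the wild type. PDE_03626 was at 6.33, 8.86 and 8.21 FPKM in the deletion strain, 12.75, 11.03 and 12.7 in the recovery strain and 11.6, 8.52 and 12.95 in the wild type. PDE_01434 lay between 5.34 and 7.27 FPKM in all libraries.

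Of the 39 flanking genes 33 passed the filter. In the deletion strain 10 of them were called higher and 3 lower than in the wild type (limma adjusted p under 0.05). The other 20 were not called. Of all genes tested 15.0% were called higher and 11.1% lower. Of the 10 called higher, 5 were in the flanks of the PDE_02138 stretch, 2 each in those of the PDE_00007 and PDE_01429 stretches and 1 in those of the PDE_03620 stretch. The median log2 change of the flank genes was -0.12 around the PDE_00007 stretch, -0.18 around the PDE_01429 stretch, 1.20 around the PDE_02138 stretch and 0.15 around the PDE_03620 stretch. The PDE_02138 window therefore held genes that were lower in the deletion strain, with genes called higher further out on both sides. The numbers next to the stretch were not among these: PDE_02137 changed by 0.03 and PDE_02143, which was not tested, by 0.00. Without wild-type replicate 3 or without deletion replicate 3, 6 genes of all windows were called higher in place of 10. The calls of PDE_00012, PDE_01424, PDE_01426, PDE_01437, PDE_02134 and PDE_03615 each failed in at least 4 of the 9 fits that left out 1 library, with a highest limma adjusted p of 0.0714, 0.0918, 0.122, 0.123, 0.114 and 0.103 in that order. Those of PDE_00003, PDE_00013, PDE_01425, PDE_02133, PDE_02136, PDE_02144 and PDE_02145 held in all 9.

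PDE_02145, placed 3 numbers after the PDE_02138 stretch, was the most abundant gene of that window. It stood at 1728, 1445 and 1611 FPKM in the deletion strain, 189, 209 and 258 in the recovery strain and 472, 496 and 486 in the wild type. The 3 strains did not overlap, with the deletion strain at 329% and the recovery strain at 45.1% of the wild-type mean. It was the only one of the 54 members tested that was called between recovery strain and wild type, by -1.16 ± 0.16 on the log2 scale (SE; adjusted p = 0.00965 in limma). It was no longer past the threshold without wild-type replicate 3, recovery replicate 1 or recovery replicate 2, at limma adjusted p of 0.0644, 0.0862 and 0.0742. Next to it PDE_02144 was at 351, 206 and 303 FPKM in the deletion strain, 109, 117 and 104 in the recovery strain and 120.18, 115 and 129 in the wild type. Its deletion libraries lay above all others, and its recovery and wild-type libraries overlapped. On the other side of the stretch, PDE_02136 was at 23.1, 15.15 and 22.3 FPKM in the deletion strain, 7.90, 8.56 and 6.63 in the recovery strain and 3.62, 9.25 and 3.90 in the wild type, and PDE_02133 at 55.8, 46.6 and 60.7 FPKM in the deletion strain, 38.1, 35.9 and 35.4 in the recovery strain and 23.65, 31.1 and 27.1 in the wild type. Wild-type replicate 2 was the wild-type library closest to the deletion strain for both. Without it the recovery strain was called higher than the wild type for PDE_02136 (log2 change 0.86, limma adjusted p = 0.0451). PDE_02134 showed the same in a larger form, at 6.74, 20.0 and 11.9 FPKM in the deletion strain, 0.56, 0.37 and 0.43 in the recovery strain and 0.43, 7.52 and 0 in the wild type, so that wild-type replicate 2 alone overlapped the deletion libraries.

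In the flanks of the PDE_01429 stretch the largest called change on the log2(FPKM + 1) scale was that of PDE_01425, at 64.5, 88.6 and 48.2 FPKM in the deletion strain, 18.2, 19.45 and 14.4 in the recovery strain and 12.5, 18.8 and 14.6 in the wild type, or 438% of the wild-type mean. PDE_01424 beside it was at 137% of the wild type, with 295, 242 and 268 FPKM in the deletion strain, 206, 207 and 193 in the recovery strain and 190.29, 196 and 199 in the wild type. Called lower were PDE_01426, at 49.3% of the wild-type mean, and PDE_01437, at 65.5%. Beyond its far border, PDE_01435 and PDE_01436 were at 86.9% and 87.7% of the wild-type mean and were not called.

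Around the PDE_00007 stretch the deletion strain was higher in both numbers that follow it. PDE_00012 was at 11.5, 6.54 and 9.88 FPKM in the deletion strain, 3.59, 3.67 and 4.76 in the recovery strain and 3.41, 5.52 and 3.88 in the wild type. PDE_00013 was at 6.63, 6.97 and 5.85 FPKM in the deletion strain, 2.22, 2.49 and 2.90 in the recovery strain and 1.66, 3.93 and 2.48 in the wild type. Deletion replicates lay above all recovery and wild-type libraries for both. Before the stretch, PDE_00003 was lower, at 1.93, 1.90 and 1.21 FPKM in the deletion strain, 4.34, 4.85 and 4.08 in the recovery strain and 5.47, 5.74 and 7.13 in the wild type, while PDE_00004 and PDE_00005 between it and the stretch were not called or not tested. PDE_00006, which borders the stretch, was at 13.6, 13.4 and 18.25 FPKM in the deletion strain, 7.23, 8.05 and 8.93 in the recovery strain and 10.1, 20.4 and 11.7 in the wild type. Its recovery libraries lay below all deletion and wild-type libraries, but its change in recovery against wild type was not called (log2 change -0.68 ± 0.25, SE, limma adjusted p = 0.252).

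The flanks of the PDE_03620 stretch held the fewest calls between deletion strain and wild type. Against the wild type PDE_03615 was the 1 gene called, higher in the deletion strain, at 59.3, 35.1 and 53.3 FPKM in the deletion strain, 31.4, 32.55 and 27.6 in the recovery strain and 31.9, 19.1 and 30.3 in the wild type, and wild-type replicate 2 was the lowest wild-type library. PDE_03616, the most abundant gene of this window, was at 134% of the wild-type mean in the deletion strain and 102% in the recovery strain, and was called in none of the 3 comparisons. PDE_03627 was at 1.63, 0.40 and 0.42 FPKM in the deletion strain, 2.53, 3.34 and 4.18 in the recovery strain and 4.98, 0.82 and 4.37 in the wild type, and its groups overlapped through wild-type replicate 2. It and PDE_03626 before it had mean deletion levels of 24.1% and 70.7% of the wild type, neither called against the wild type. PDE_03617, PDE_03628, PDE_03629 and PDE_03630 had deletion means of 84.8% to 155% of the wild type. Against the recovery strain 3 of the 10 flank genes were called lower in the deletion strain, where 16.1% of all genes tested were. They were PDE_03618 (log2 change -0.85, limma adjusted p = 0.0216), PDE_03626 as given above and PDE_03629 (-0.33, limma adjusted p = 0.0416). Their calls failed in 3, 7 and 7, in that order, of the 9 fits that left out 1 library. In the recovery strain PDE_03618 stood at 181% of the wild type, with no overlap and a limma adjusted p of 0.199.

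The 6 members under the filter were PDE_00004, PDE_00014, PDE_01427, PDE_01438, PDE_02135 and PDE_02143, all in flanks. None of them exceeded 1.16 FPKM in any library. All 21 stretch genes passed the filter, but some, such as PDE_01430, did so through their recovery and wild-type libraries alone. PDE_00002, PDE_00015, PDE_00016 and PDE_02146, which were also tested, stayed under 10 FPKM in every library and were called in none of the 3 comparisons.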

How the data were processed

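Poly(A) RNA of mycelium was profiled in 9 libraries, grouped by the strain in their titles. Per the file headers, the authors deposited FPKM, with 2 decimals. The labels' protocols describe tags cut with NlaIII and MmeI (digital gene expression), which does not match a per-length unit and was not settled; levels of different genes may then not compare as molecules. For the aligner, counting tool, build and annotation, nothing is stated (not given in the sources used here). Reads per library are not given, so no counting interval was computed.

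The 9099 genes that reached 1 FPKM in 3 or more of the 9 libraries were kept, and log2(FPKM + 1) was fitted with limma 3.58.1 in R 4.3.3 (1 mean per strain, no covariates, trend and robust empirical Bayes, two-sided, Benjamini-Hochberg adjustment over all genes of a comparison, threshold 0.05). The code was tested on simulated data. Summaries and plots used Python 3.11.15, numpy 2.4.6, pandas 2.3.3 and matplotlib 3.10.9. The genes, stretches and alternatives were chosen with earlier results of these data known. All stretch genes are named, and of the flanks the border genes and those called, while other flank genes named were chosen after their values were seen. Alternatives covered pseudocounts, filters, scaling, limma options, array weights, the threshold, the strains fitted, the replicate number as a block and left-out libraries. No libraries were identical. No sequence is shown, since the reference table matched 0 of the locus numbers.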

Additional observations from a re-analysis of the deposited data

How the results depend on the processing

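The 24 members called lower against the wild type ranged from 22 to 27 over the alternatives and the 26 called lower against the recovery strain from 20 to 30. The 10 members called higher ranged from 6 to 13 against the wild type and from 5 to 15 against the recovery strain. The 1 member called in recovery against wild type became 17 with array weights, a fit that stopped before converging, and 13 without wild-type replicate 2 and deletion replicate 2 together. Among the 17 were 4 genes of the PDE_02138 stretch called higher, PDE_02138 to PDE_02141. Also among them were 5 genes of the PDE_00007 stretch and 2 of the PDE_03620 stretch, called lower. The rest were flank genes. Over all genes tested, array weights called 954 of 9099 lower and 1705 higher, against 66 and 77 without weights. Without both replicates 1126 of 9025 were called lower and 1418 higher. With 1 library left out the count of members was 0 to 7. It was 7 without wild-type replicate 2, where 435 of 9083 genes tested were called lower and 248 higher. It was 0 without wild-type replicate 3, recovery replicate 1 or recovery replicate 2. The calls thus rose over all genes and not only among the members. The cause was not tested.

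Stretch medians of the log2 change moved beyond the spread between replicates mainly with the pseudocount, by construction. With 0.1 the PDE_01429, PDE_02138 and PDE_03620 stretches stood at -5.57, -5.40 and -5.09 against the wild type and at -5.73, -5.73 and -4.47 against the recovery strain. With 5 they stood at -2.70, -3.67 and -2.85 against the wild type and at -2.73, -4.07 and -2.71 against the recovery strain. Means in place of medians gave -3.86 and -4.28 for the PDE_01429 and PDE_02138 stretches against the wild type and -3.75 and -4.60 against the recovery strain. For the PDE_00007 stretch against the recovery strain the median was -1.41 with array weights, -1.48 without both libraries, and between -2.31 and -1.48 with 1 library left out. In recovery against wild type the PDE_01429 stretch stood at 0.22 with array weights. No setting reversed a median that exceeded the spread between replicates.

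Over all alternatives 2113 values of single genes were recomputed. In the deletion comparisons they covered only members called with all libraries, so none of those could be newly past the threshold. In recovery against wild type they covered the 21 stretch genes and PDE_02145. New calls of other flank genes are not in these counts. Of the 2113 values 1969 kept their side of the threshold, 120 were no longer past it and 24 were newly past it. The 24 were all in recovery against wild type. Among called values 0 changed sign, while 15 values that were not called did. Scaling to TPM, quantile normalization and median centring shifted the median of all genes by less than 0.1. Samples were treated as unpaired: deviations from the group means correlated over 0.1 in 3 of the 9 pairs of libraries with 1 number (-0.106 to 0.222), and 6 of 9 samples correlated best with a library of their own number. With the replicate number as a block, 22 members were called lower against the wild type, 25 lower against the recovery strain and 1 in recovery against wild type. The number of reads behind values under 1 FPKM, as in the PDE_01429 stretch of the deletion strain, is unknown, which limits how deep a fall can be stated there.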
